A study of Mus musculus with 65 samples.

Results

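The metallothioneins Mt1, Mt2 and Mt3 were followed in the mouse retina as a family of 3 genes among the 50686 genes of the count table. They were found by symbol through their Ensembl identifiers (ENSMUSG00000031765, ENSMUSG00000031762 and ENSMUSG00000031760), and all 3 had counts in every library. The family was chosen by its response to lipopolysaccharide in these same mice, so its levels and ratios under LPS are given here as a description, and the calls on those contrasts are no evidence about it. The retinas came from 65 adult wild-type C57BL/6J mice in 16 groups, 1 library per mouse. CD mice (5) received control diet. The label of 1 of them is CD_2M in place of a number. In the labels of REPOP60 2M stands for 2 months, and its meaning in CD is not given. DEP groups were fed PLX5622, an inhibitor of the CSF1 receptor that removes microglia, and were taken on day 2, 5, 7, 10, 14 or 21 of feeding. REPOP groups were returned to control diet so that microglia came back, and were taken on day 3, 5, 7, 10, 14 or 21 of repopulation or, for REPOP60, after 2 months. LPSCD mice (3) had resident microglia and were challenged with lipopolysaccharide (LPS), the bacterial wall component used to provoke inflammation. LPSREPOP (4 mice) also received LPS. By the study's methods this followed repopulation, while the labels name PLX5622 and LPS only. How long microglia had repopulated before LPS is not given, so LPSREPOP and REPOP60 may also differ in it. The interval between LPS and tissue collection is not given in the sources used here. DEP5 had 3 mice, REPOP7 had 6 and every remaining group had 4.

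Metallothioneins are small cysteine-rich proteins that bind zinc and copper and take up reactive oxygen species. Mt1 and Mt2 are made in most tissues, and their transcription is switched on by zinc through the transcription factor MTF1, by glucocorticoids, and by interleukin 6 signalling through STAT3. Mt3 is found mainly in the nervous system and is known as far less inducible. Mt4 is a form of stratified epithelium. In the retina, metallothioneins are known from Mueller glia, astrocytes and pigment epithelium.

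All 4 genes lie on the forward strand of chromosome 8 of the GRCm38 assembly. Mt4 occupies positions 94137197 to 94139031, Mt3 94152607 to 94154146, Mt2 94172664 to 94173568 and Mt1 94179082 to 94180327. A single-exon antisense gene, Gm45774, runs on the reverse strand from 94170748 to 94173412, and 432 of the 588 exonic bases of Mt2, 73.5%, lie inside it. Reads of Mt2 and Gm45774 that fall in this stretch cannot be told apart without strand, and the use of strand in counting is not given in the sources used here. Both are therefore shown side by side below. The exons of Mt1 cover 1246 bases and those of Mt3 1066 bases.

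The upstream sequences are shown because Mt1 and Mt2 were the members that differed most between LPS and unchallenged retinas, while Mt3 differed less. They are bases ahead of the RefSeq start on GRCm38.p6, forward strand, 5′ to 3′. The Mt1 sequence stops where the annotated gene begins, 7 bases short of its RefSeq start at position 94179089. For Mt1 they are chr8:94178839-94179081, for Mt2 chr8:94172368-94172617 and for Mt3 chr8:94152357-94152606. Capitals mark the core letters of the metal response element to which MTF1 binds, searched as TGCACNC or TGCGCNC on both strands.
Mt1: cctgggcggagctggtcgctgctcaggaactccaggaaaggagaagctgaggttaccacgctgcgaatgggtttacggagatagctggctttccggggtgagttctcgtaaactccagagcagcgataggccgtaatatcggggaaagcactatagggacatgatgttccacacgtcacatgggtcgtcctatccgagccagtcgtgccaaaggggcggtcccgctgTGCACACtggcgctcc
Mt2: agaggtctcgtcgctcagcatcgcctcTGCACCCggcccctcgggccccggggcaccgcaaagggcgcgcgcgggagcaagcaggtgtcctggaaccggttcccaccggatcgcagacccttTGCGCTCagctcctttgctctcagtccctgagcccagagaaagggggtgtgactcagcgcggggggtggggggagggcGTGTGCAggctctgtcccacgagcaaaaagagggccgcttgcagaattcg
Mt3: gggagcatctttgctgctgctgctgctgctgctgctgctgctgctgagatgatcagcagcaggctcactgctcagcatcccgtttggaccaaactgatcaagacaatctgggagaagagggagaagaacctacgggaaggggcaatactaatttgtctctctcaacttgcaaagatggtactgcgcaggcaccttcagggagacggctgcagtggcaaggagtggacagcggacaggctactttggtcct
The Mt1 window held 1 core, 23 to 17 bases before that RefSeq start, the Mt2 window held 3 and the Mt3 window none. Among 32851 RefSeq promoter windows of 250 bases, 21.4% held at least 1 such core and 5.17% held 2 or more. The Mt2 window also held 1 match to TGACNNNGC, the core of the antioxidant response element, which 10.2% of all windows held. Neither AGAACA, a glucocorticoid receptor half-site, nor TTCNNNGAA, a STAT site, occurred in the 3 windows. These letters were found in 16.1% and 7.02% of all windows. Bases beyond the RefSeq starts were not searched, so any site inside the annotated Mt1 gene is missed. The numbers of matches therefore do not compare the whole promoters of the 3 genes. A match or its absence describes these letters in these windows only.

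Levels are given as TMM-scaled CPM, the share of a gene among the counts of its library, and as the deposited FPKM, a value per transcript length that allows levels of different genes to be set side by side. Library totals ranged from 5106429 to 8760443 counts with a median of 7944665, so that 3 counts were worth 0.342 to 0.587 CPM. Sample titles end in RE for 39 mice and in re for 26, and what this mark stands for is not given. The mark divided the groups unevenly. CD held 3 RE and 2 re mice, all 7 LPS mice and all 4 REPOP60 mice were re, and most time course groups held 3 RE mice and 1 re mouse. LPSREPOP and REPOP60 had the same mark throughout, and values within re mice are given beside the comparison of LPSCD with CD.

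Mt1 was the most abundant member in FPKM in 65 of 65 mice, and Mt4 had no count in any mouse. In the 5 CD retinas Mt1 stood at 33.2, 33.1, 33.0, 42.0 and 53.9 FPKM. Mt2 stood at 14.5, 19.5, 21.8, 23.0 and 24.7 FPKM in the same mice. Mt3 stood at 16.4, 17.3, 19.4, 17.9 and 21.6 FPKM. In FPKM Mt1 was thus above the other members in each CD mouse, whereas Mt2 and Mt3 covered overlapping ranges. The counts gave another order. Per exonic base Mt1 had the most counts of the 3 genes in 20 of 26 re mice but in 7 of 39 RE mice, where Mt2 led in 17 and Mt3 in 15, and in 2 of 5 CD mice. The annotated exons of Mt1 together span the whole gene, and the part of this length in the order was not tested. The counts of Mt1 were below those of Mt3 in 22 RE mice and in 0 re mice. The order of the members per length therefore depended on the measure, and the FPKM order below is that of one measure. Mt3 was the lowest member in 51 mice and Mt2 in 14. The summed FPKM of the 3 genes was 78.3 ± 14.03 in CD (SD, n = 5) and 75.3 ± 4.07 in REPOP60 (n = 4). It was 242.4 ± 101.9 in LPSCD (n = 3) and 152.4 ± 33.9 in LPSREPOP (n = 4). The shares of Mt1 were similar and that of Mt3 was smaller in the LPS groups. Mt1 made up 49.6% of it in CD, 52.7% in REPOP60, 53.8% in LPSCD and 53.4% in LPSREPOP. The share of Mt2 was 26.4% in CD, 26.1% in REPOP60, 32.2% in LPSCD and 30.0% in LPSREPOP, and that of Mt3 was 23.9%, 21.2%, 14.03% and 16.6% in the same order. Mt2 was above Mt3 in FPKM in 7 of 7 LPS mice and in 44 of 58 unchallenged mice.

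The first question was how the family responded to LPS in retinas with repopulated microglia, where LPSREPOP and REPOP60 mice shared the re mark. Mt1 was 42.5, 57.4, 39.5 and 33.0 CPM in the 4 LPSREPOP retinas and 19.1, 18.4, 22.4 and 22.6 CPM in the 4 REPOP60 retinas. The lowest challenged retina was above the highest unchallenged one, and the mean was 2.09-fold higher, a log2 ratio of 1.06 in CPM and 1.03 in FPKM. Mt2 was 21.9, 26.8, 20.2 and 13.95 CPM in LPSREPOP and 7.73, 8.05, 9.99 and 9.05 CPM in REPOP60. These groups did not overlap either, with a 2.38-fold higher mean and a log2 ratio of 1.25 in CPM and 1.23 in FPKM. Mt3, the neural member, was 14.8, 20.5, 14.04 and 13.3 CPM in LPSREPOP and 11.0, 10.3, 9.73 and 10.6 CPM in REPOP60. It also stood above all unchallenged retinas of this pair, but by less, at 1.51-fold and a log2 ratio of 0.59 in CPM and 0.66 in FPKM. The standard deviation between mice on the log2 scale was 0.26 for Mt1, 0.30 for Mt2 and 0.21 for Mt3.

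**Figure D1:**
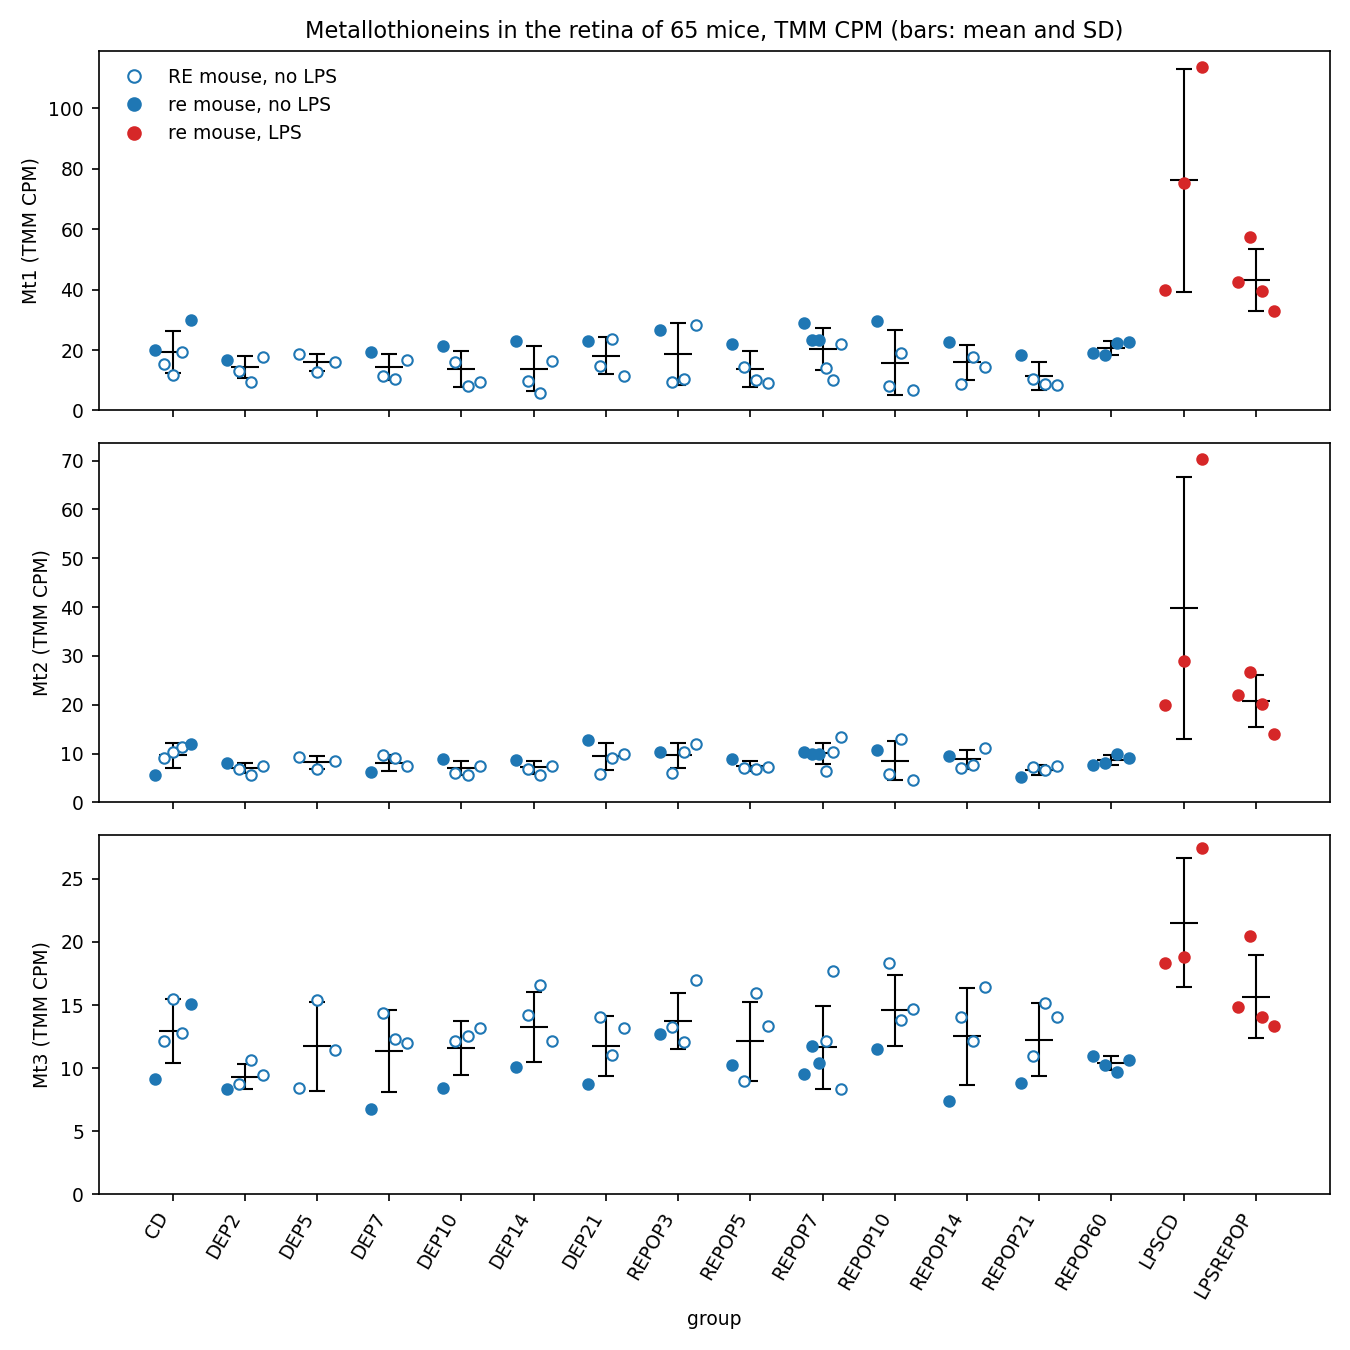
Level of Mt1, Mt2 and Mt3 in TMM CPM (vertical axis) in each of 65 mice by group (horizontal axis). Open points are RE mice, filled points re mice and red points LPS mice, with bars for the group mean and SD. The 7 LPS retinas held the highest Mt1 and Mt2 values, from 33.0 and 13.95 CPM upward, and Mt3 overlapped with unchallenged groups.

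The same question in retinas with resident microglia was addressed by LPSCD against CD. Mt1 reached 39.8, 75.2 and 113.6 CPM in the 3 LPSCD retinas, against 20.0, 15.2, 11.7, 19.5 and 30.0 CPM in the 5 CD retinas. Mt2 reached 20.0, 29.0 and 70.4 CPM, against 5.55, 9.15, 10.3, 11.3 and 12.02 CPM. Both genes were higher in each LPSCD retina than in any CD retina, and the challenged mice differed widely among themselves. The mean of Mt1 was 3.95-fold that of CD, a log2 ratio of 1.98 in CPM and 1.71 in FPKM. The mean of Mt2 was 4.12-fold that of CD, a log2 ratio of 2.04 in CPM and 1.99 in FPKM. Mt3 was 18.3, 18.8 and 27.5 CPM in LPSCD and 9.16, 12.1, 15.5, 12.8 and 15.1 CPM in CD, again without overlap and with a smaller ratio. Without the third LPSCD mouse the log2 ratio of Mt2 in CPM was 1.34. The mean of Mt3 was 1.67-fold higher, a log2 ratio of 0.74 in CPM and 0.79 in FPKM. The standard deviation between mice on the log2 scale was 0.65 for Mt1, 0.73 for Mt2 and 0.31 for Mt3. The 2 re mice of CD were the retinas with 20.0 and, for the mouse labelled 2M, 30.0 CPM of Mt1, below each LPSCD value. Over all 19 unchallenged re mice Mt1 ran from 16.7 to 30.0 CPM. The same 2 CD mice had 5.55 and 12.02 CPM of Mt2 and 9.16 and 15.1 CPM of Mt3, also below each LPSCD value. Against these 2 mice the log2 ratio in LPSCD was 1.61 for Mt1, 2.18 for Mt2 and 0.83 for Mt3.

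The family was chosen on these contrasts, so its place among their calls is stated once and nothing is read from it. Genes were called differentially expressed (DEG) with edgeR's quasi-likelihood test when the log2 fold change was beyond 1 in size and the false discovery rate (FDR) below 0.01. Higher DEGs made up 0.393% of 24927 genes tested in LPSREPOP against REPOP60, 0.161% of 23606 in LPSCD against CD and 0.21% of 24262 in LPSREPOP against CD. Mt1 and Mt2 met this rule in each of these comparisons and Mt3 in none. Several alternatives ended these calls. In LPSCD against CD neither gene met the rule once the title mark entered the fit of these groups, in re mice only, with a stricter filter on low counts, or without the third LPSCD mouse or CD mouse 2 or 4. Mt2 did not meet it there without CD mouse 3. Both met it in 1 fit over all groups, with or without the mark. In LPSREPOP against CD both were lost with the stricter filter, in re mice only, in 1 fit over all groups with the mark, and without CD mouse 2 or any of LPSREPOP mice 1, 2 and 3. Mt1 alone was lost there with the mark or in 1 fit over all groups, and Mt2 alone without CD mouse 1. In LPSREPOP against REPOP60 Mt1 was lost without LPSREPOP mouse 2 or in 1 fit over all groups, with or without the mark.

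The 2 challenged groups were then set against each other. Mean Mt1 was 76.2 ± 36.9 CPM in LPSCD (SD, n = 3) and 43.1 ± 10.3 CPM in LPSREPOP (n = 4). Mean Mt2 was 39.8 ± 26.8 and 20.7 ± 5.31 CPM, and mean Mt3 was 21.5 ± 5.14 and 15.7 ± 3.28 CPM, in the same order. All 3 means were lower in LPSREPOP, and for each gene the ranges of the 2 groups overlapped. The log2 ratio was -0.82 for Mt1, -0.94 for Mt2 and -0.46 for Mt3, with standard deviations between mice of 0.59, 0.72 and 0.30 on the same scale. Without the third LPSCD mouse that of Mt2 was -0.24. In this comparison 0 of 24500 genes were DEGs or passed an FDR of 0.05 (0%) by edgeR, DESeq2 also called 0 DEGs, and 1973 genes had an unadjusted p under 0.05. Without the first LPSCD mouse 86 genes were DEGs, Mt1 among them, from which nothing is read for a gene chosen on these mice.

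The spread within the LPS groups had the same order for the 3 members at its ends. The third LPSCD mouse held the highest and the first LPSCD mouse the lowest value of Mt1, Mt2 and Mt3 in its group. In LPSREPOP the second mouse held the highest and the one numbered 4 the lowest value of all 3 genes. The same mice stood at the ends for 2 genes chosen after their values were seen, of which the first was Serpina3n, a secreted protease inhibitor of reactive astrocytes. It was 10.6, 36.6 and 173.9 CPM in LPSCD and 22.7, 70.5, 55.5 and 5.89 CPM in LPSREPOP. The other was Lcn2, an iron-siderophore carrier of the acute phase, at 7.10, 48.1 and 104.7 CPM in LPSCD and 19.1, 67.9, 64.4 and 6.02 CPM in LPSREPOP. Other genes had another order. Gpx3, a secreted glutathione peroxidase, was highest in the second LPSCD mouse and the third LPSREPOP mouse, which also held the highest A2m, Cp and Steap4 of LPSREPOP. S1pr3 was highest in the first LPSCD mouse, at 45.4 CPM, and lowest in the third, at 30.1 CPM. With 3 and 4 mice a group, no test of this shared order was made.

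**Figure D2:**
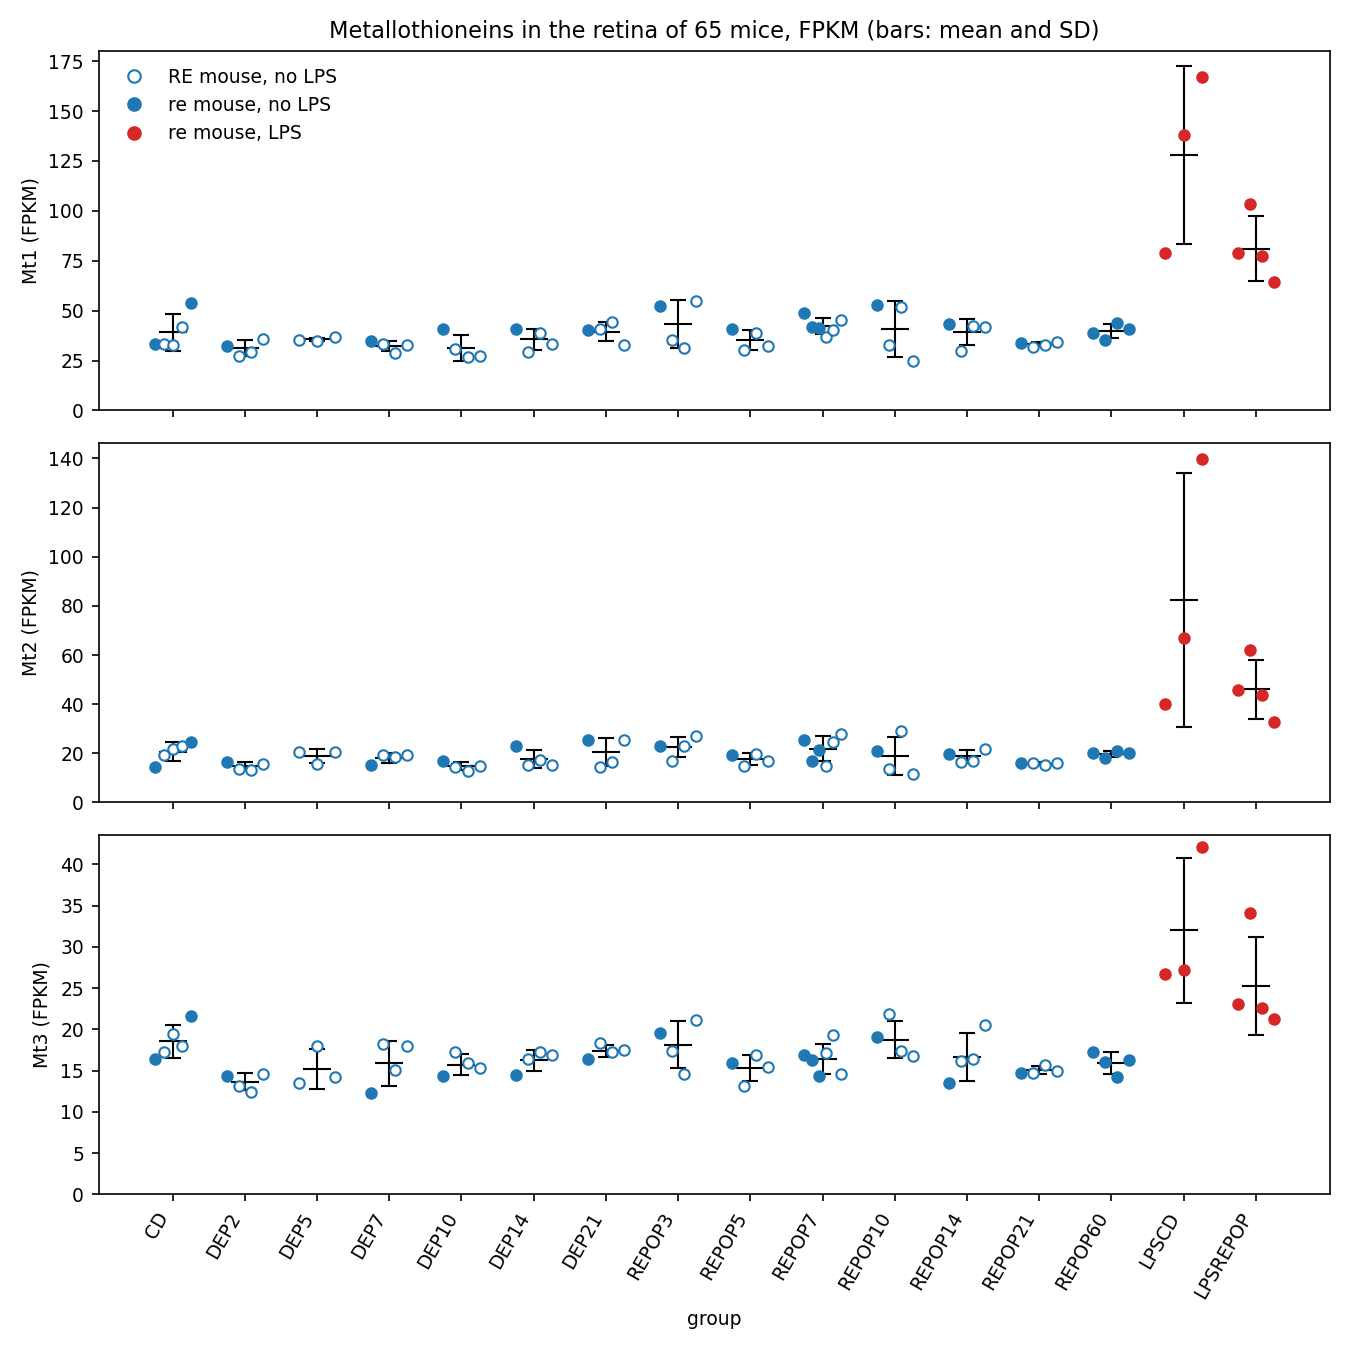
Level of Mt1, Mt2 and Mt3 in FPKM (vertical axis) in each of 65 mice by group (horizontal axis), with symbols for title mark and LPS and bars for the group mean and SD. Mt1 of unchallenged mice lay between 24.9 and 55.1 FPKM whatever the title mark, below the lowest LPS value of 64.5 FPKM.

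Depletion and repopulation by themselves were covered by 13 groups without LPS. Mt1 ranged from 5.91 to 30.0 CPM over the 58 unchallenged mice, Mt2 from 4.68 to 13.3 CPM and Mt3 from 6.78 to 18.4 CPM. For each gene the range of every one of the 13 groups overlapped with that of CD in CPM. The log2 ratio of the group means to CD ran from -0.75 in REPOP21 to 0.10 in REPOP60 for Mt1. For Mt2 it ran from -0.55 in REPOP21 to 0.05 in REPOP7, and for Mt3 from -0.47 in DEP2 to 0.17 in REPOP10. The mean lay below CD in 11 of 13 groups for Mt1, in 11 for Mt2 and in 10 for Mt3, all against the same CD mice. In FPKM 7 of 13 groups were below CD for Mt1, 11 for Mt2 and 12 for Mt3, and Mt3 lay below the CD range without overlap in DEP2 (12.5 to 14.6 FPKM) and REPOP21 (14.7 to 15.7 FPKM). On day 14 of depletion Mt1 was 23.0, 9.86, 5.91 and 16.5 CPM, Mt2 8.63, 6.87, 5.65 and 7.49 CPM and Mt3 10.1, 14.2, 16.6 and 12.2 CPM. These ranges overlapped with those of CD while Cx3cr1, a receptor gene of microglia, was at 0 CPM in DEP14 against 3.92 CPM in CD. In 8 of the 13 groups each mouse deviated from its group mean together with the CD mouse of the same replicate number. These mice also shared the title mark, so that pairing cannot be told apart from the mark. They are called pairs here by number only. In CPM Mt1 was below the same-numbered CD mouse in 4 of 4 pairs in DEP2, DEP7 and REPOP21, Mt2 in REPOP21 and Mt3 in DEP2. The log2 ratio ran from -1.21 to -0.12 over the pairs for Mt1 and from -0.63 to -0.10 for Mt2 in REPOP21, and from -0.54 to -0.13 for Mt3 in DEP2. In FPKM this held for Mt1 in DEP2 and for Mt3 in DEP2, DEP10, DEP14, REPOP5 and REPOP21. In each unit 24 combinations of gene and group were read, all on the same CD mice. No member was a DEG in any of the 13 comparisons with CD, where 0.0502% of 27869 genes were a DEG at least once. Ordered by mean CPM, LPSCD and LPSREPOP were the top groups for each gene. The step from LPSREPOP to the next group was the only one without overlap for Mt1 and Mt2, and there was none for Mt3.

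The title mark went with the level of Mt1 in CPM. Mt1 averaged 13.3 ± 4.97 CPM in the 39 RE mice and 22.7 ± 3.80 CPM in the 19 re mice without LPS. Mt2 averaged 8.10 ± 2.16 and 9.03 ± 1.98 CPM, and Mt3 13.1 ± 2.50 and 10.04 ± 1.92 CPM. In CPM Mt1 was thus higher and Mt3 lower in re mice, with groups mixed in different proportions between the marks. In FPKM Mt1 averaged 35.2 ± 6.58 in RE and 41.6 ± 6.57 in unchallenged re mice. The summed FPKM of the family was 70.0 in RE and 77.4 in unchallenged re mice, and Mt3 made up 24.0% and 20.8% of it. Mt3 therefore differed little between the marks in FPKM. The FPKM per CPM of Mt1 had a median of 2.82 in RE mice, with values from 1.88 to 6.54, and of 1.84 in re mice, with values from 1.47 to 2.03. The 2 deposited measures of Mt1 therefore differed most in RE mice, and the part of the title mark in the time course values of Mt1 was not tested.

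**Figure D3:**
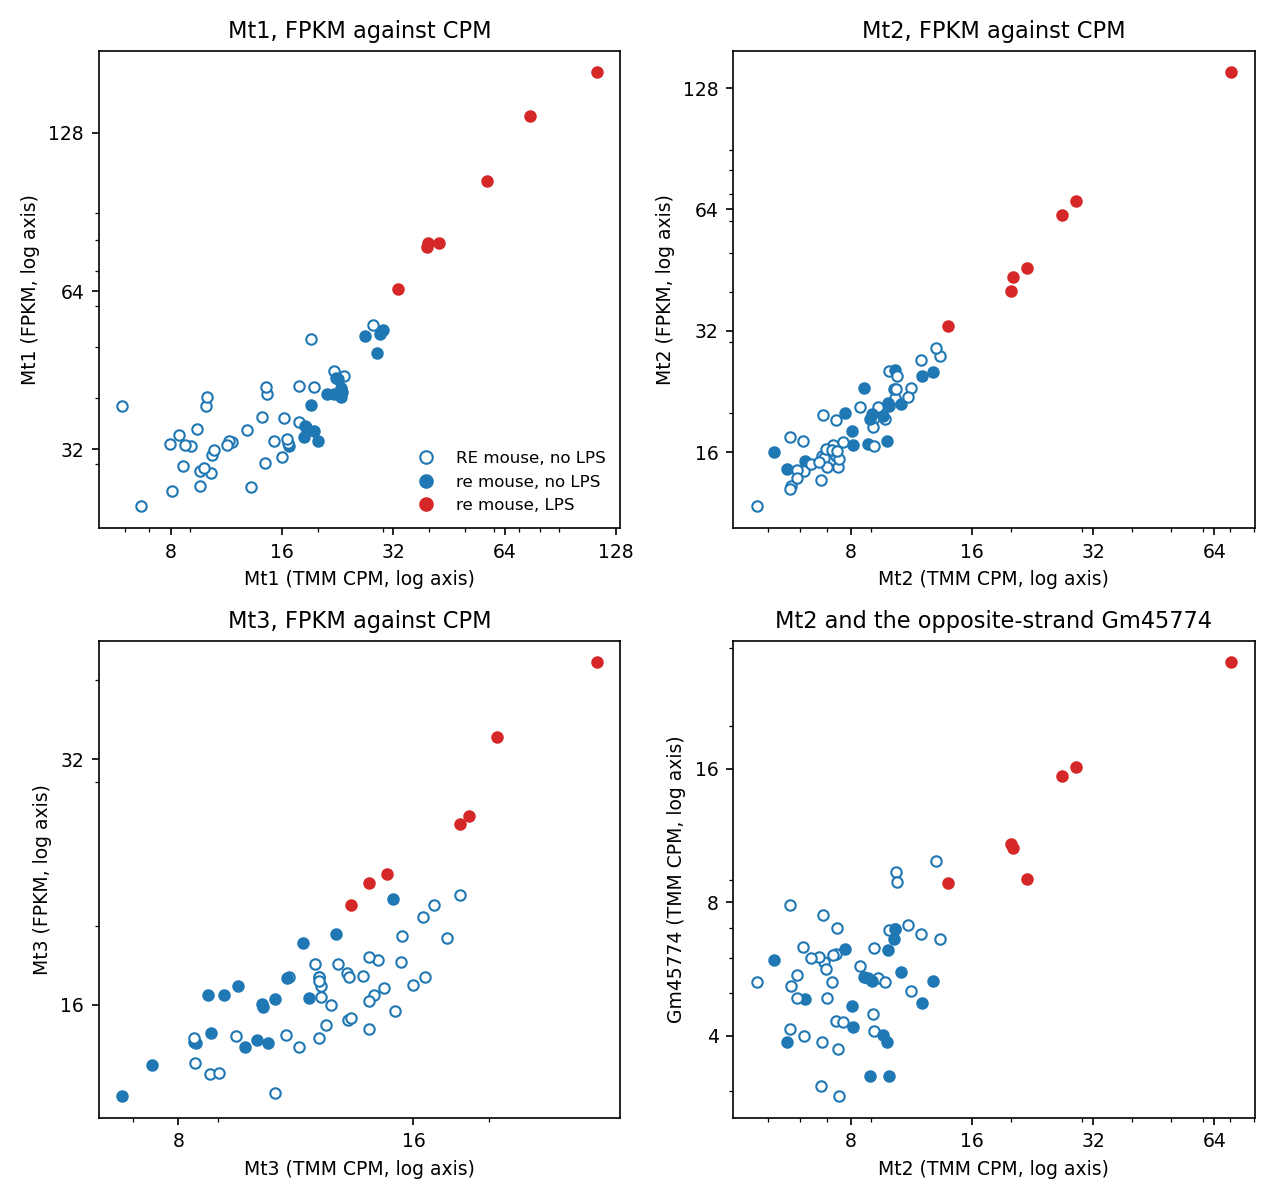
The first 3 panels plot FPKM against TMM CPM for Mt1, Mt2 and Mt3, 1 point per mouse on log axes, and the last plots CPM of Gm45774 against CPM of Mt2. Mt1 of RE mice (open) ran from 5.91 to 28.2 CPM, a wider spread than its 24.9 to 55.1 FPKM, and LPS mice (red) lie at the upper right for Mt1 and Mt2.

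Gm45774, the antisense gene over Mt2, was also higher in the LPS mice. It was 10.8, 16.2 and 27.8 CPM in LPSCD and 9.05, 15.5, 10.6 and 8.83 CPM in LPSREPOP. CD averaged 5.39 ± 1.24 CPM and REPOP60 4.88 ± 1.28 CPM. Its log2 ratio was 1.76 in LPSCD against CD and 1.17 in LPSREPOP against REPOP60, close to those of Mt2. In FPKM, which StringTie assigns by transcript, Gm45774 was 0.576, 0.453 and 1.31 in LPSCD against 0.131 to 0.336 in CD, and 0.383 to 0.625 in LPSREPOP against 0.0939 to 0.357 in REPOP60. These levels were low and did not overlap either, while the log2 ratio of Mt2 in FPKM was 1.99 and 1.23. With both genes summed in CPM the ratio was 1.95 and 1.22. Across the 19 unchallenged re mice Pearson's r between Mt2 and Gm45774 was 0.08, and across all 26 re mice, LPS included, it was 0.88. Across the 39 RE mice, all unchallenged, it was 0.41.

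The 3 members were more alike across mice when LPS mice were included. Across 26 re mice Pearson's r of log2 CPM was 0.96 for Mt1 and Mt2, 0.90 for Mt1 and Mt3 and 0.89 for Mt2 and Mt3. Without LPS, across 19 re mice, it was 0.71, 0.58 and 0.47. Across 39 RE mice it was 0.60 for Mt1 and Mt2, -0.41 for Mt1 and Mt3 and -0.06 for Mt2 and Mt3, and in FPKM the last pairs stood at 0.43 and 0.27. The sign of the relation of Mt1 and Mt3 in RE mice thus depended on the measure. Among 12343 genes, those most like Mt1 over 26 re mice were Eef1a1 (r = 0.94), Frmpd2, Grn, Fth1 and Gorasp2. Those most like Mt2 were Eng (r = 0.93), Fth1, Eef1a1, Axl and Rps27, and those most like Mt3 included Shisa5 (r = 0.89), Fth1, Vat1 and Rps27. Fth1, the ferritin heavy chain that stores iron, was on each of these lists, and its r was 0.42, 0.44 and 0.47 with Mt1, Mt2 and Mt3 without LPS. Over the 39 RE mice the r of Fth1 was -0.44, -0.07 and 0.64 with the same genes. Frmpd2, at 0.93 with Mt1 over 26 re mice, stood at 0.37 without LPS. Likeness over 26 re mice thus restates in large part the LPS difference by which the family was chosen. Over 39 RE mice other genes led. They were Atp6v0d1 (r = 0.90), Pld3, Napa, Dvl2 and Atp5d for Mt1, Ccdc166 (r = 0.64), Reps1, Cables1, Cstb and Oxa1l for Mt2, and Arhgdia (r = 0.79), Ndufa12, Mea1, Basp1 and Trir for Mt3. Over the 26 re mice the r of the first of each, Atp6v0d1, Ccdc166 and Arhgdia, was 0.35, -0.36 and 0.76. Over the 19 re mice without LPS it was 0.56, 0.22 and 0.31. The points share library depth and title mark, and the values describe these mice.

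Genes around the cluster were read beside it. Of 19 further genes annotated within 250 kb, 15 were tested in LPSREPOP against REPOP60 and 0 passed an FDR of 0.05 by edgeR, with 2 at an unadjusted p under 0.05. In LPSCD against CD 14 were tested and 1 passed, the pseudogene Ap3s1-ps2, at 0 counts in LPSCD and a mean of 0.525 CPM in CD, near the level of 3 counts, with 4 at an unadjusted p under 0.05. In these comparisons 1.87% and 1.65% of all genes were called higher and 1.05% and 0.784% lower, so that fewer than 1 call would be met among so few neighbours, and the counts say little about the region. The share of all genes at an unadjusted p under 0.05 is not given for these comparisons. Counts at that p, here and below, are therefore not read. The nearest expressed neighbour upstream of the cluster was Bbs2, a ciliary transport gene, and the nearest downstream was Nup93, a nuclear pore gene. Bbs2 had a log2 fold change of -0.16 ± 0.10 (SE) in LPSCD and 0.04 ± 0.06 in LPSREPOP. Nup93 stood at 0.43 ± 0.13 and -0.07 ± 0.11, with an FDR of 0.0784 in the first by edgeR.

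**Figure D4:**
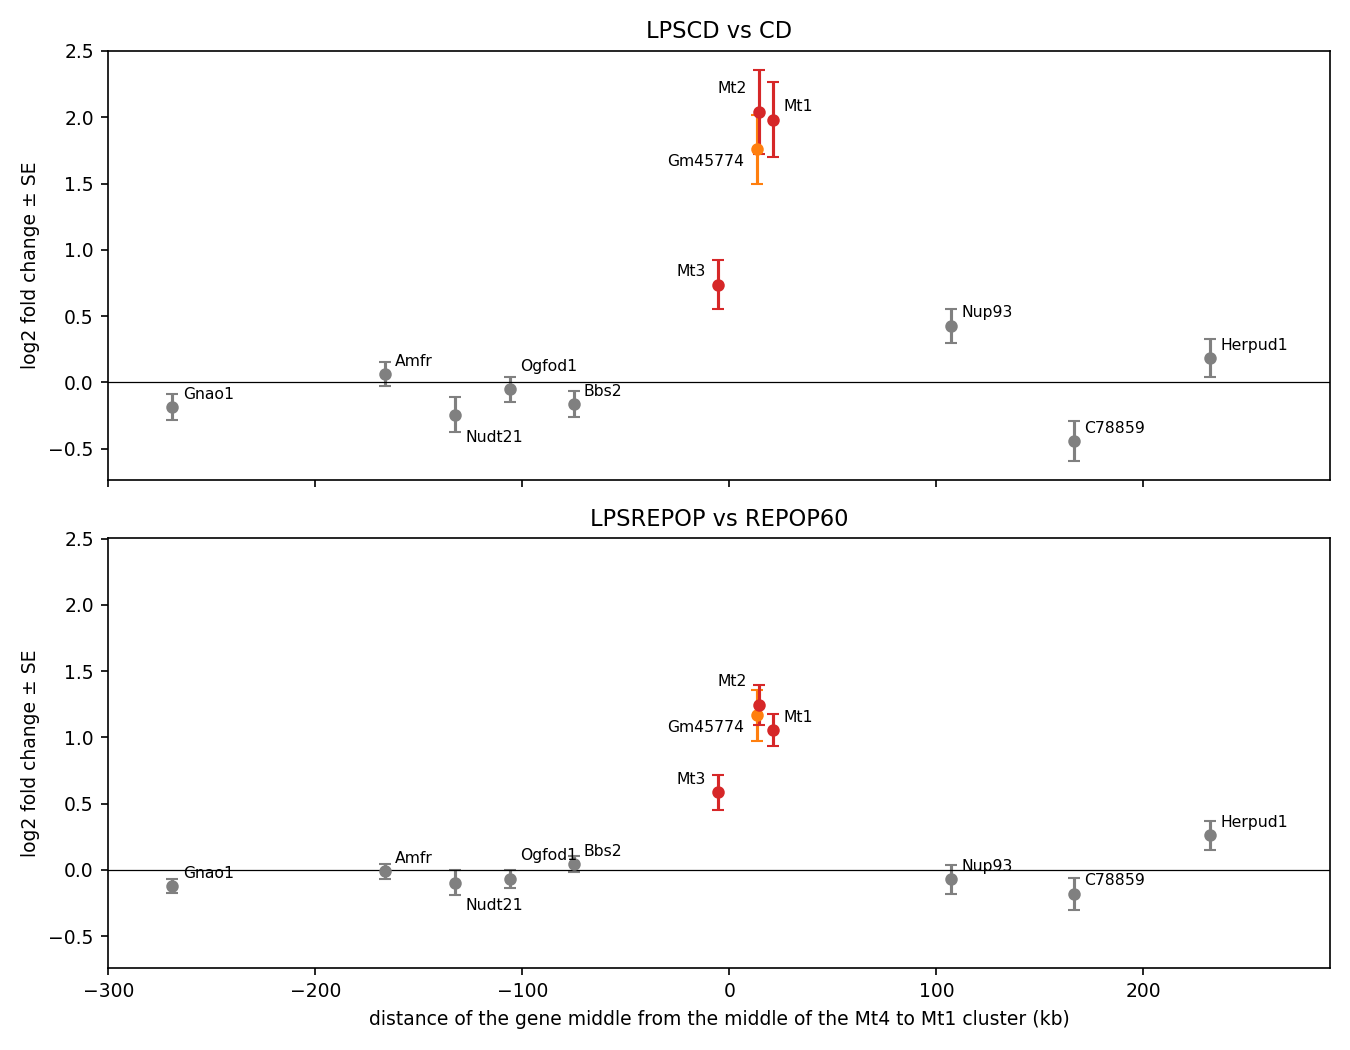
Log2 fold change with its SE (vertical axis) of genes on chromosome 8 with at least 1 CPM in each group, by distance of the gene middle from the middle of the cluster in kb (horizontal axis), for LPSCD against CD and LPSREPOP against REPOP60. Metallothioneins are red, Gm45774 orange and neighbours grey, and neighbours lie between -0.44 and 0.43.

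Genes that share the inputs of the family were read from 6 lists. A list gene was called at an FDR under 0.05 over all genes tested by edgeR. In LPSREPOP against REPOP60 1.87% of all genes were called higher and 1.05% lower. In LPSCD against CD 1.65% were called higher and 0.784% lower. Against these shares the lists held 19 called genes in LPSREPOP, all higher, and 16 in LPSCD, all higher. The called genes shared between these comparisons, which have no mouse in common, were 12, or 75.0% of the LPSCD calls and 63.2% of the LPSREPOP calls. The overlap over all called genes is not given, and the lists were chosen with earlier results known, so nothing is read from these shares. With the title mark in the fit 0 list genes were called in LPSCD against CD. Leaving out the third LPSCD mouse gave 1 called list gene in place of 16, and leaving out the first gave 36. In LPSREPOP against REPOP60, where the mark was the same throughout, leaving out 1 mouse gave 8 to 25 in place of 19, the lowest without REPOP60 mouse 4.

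Of 24 tested zinc transporters and regulators, 0 passed the FDR in either comparison by edgeR or by DESeq2. At the share of all genes fewer than 1 call would be met among 24 genes, so the count does not show that the list was unchanged. An unadjusted edgeR p under 0.05 was held by 1 of them in LPSCD and 3 in LPSREPOP. The list had a median log2 fold change of 0.06 in LPSCD and -0.04 in LPSREPOP against 0.01 and -0.01 over all genes. Mtf1, the zinc sensor that acts on the metal response element, averaged 64.6 ± 8.63 CPM in CD, 67.2 CPM in REPOP60, 68.7 CPM in LPSCD and 68.9 CPM in LPSREPOP. The smallest p belonged to the zinc importers Slc39a1 in LPSCD (0.35 ± 0.16, FDR = 0.201) and Slc39a8 in LPSREPOP (0.85 ± 0.32, FDR = 0.193). Copper and iron handling held 3 of 21 called in LPSREPOP, with a median of 0.11. These were Cp, the ferroxidase ceruloplasmin, at 0.58 ± 0.10, Ftl1, the ferritin light chain, at 0.39 ± 0.07 and Fth1 at 0.31 ± 0.05. In LPSCD only Ftl1 was called, at 0.70 ± 0.15, and the median was 0.16.

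Antioxidant defence held 3 of 23 called in LPSREPOP (median 0.10) and 1 in LPSCD (median 0.09). Gpx3, the secreted glutathione peroxidase, was 52.5, 125.4, 159.3 and 8.32 CPM in LPSREPOP and 4.85, 4.02, 5.06 and 4.93 CPM in REPOP60. It rose by a log2 fold change of 4.19 ± 0.52 there and by 2.12 ± 0.35 in LPSCD. Sod3, the extracellular superoxide dismutase, and Prdx6, a peroxiredoxin, rose in LPSREPOP by 1.36 ± 0.27 and 0.32 ± 0.06. The glucocorticoid response list held 4 of 17 called in LPSREPOP (median 0.08) and 6 in LPSCD (median 0.35). Fkbp5, a co-chaperone that limits the glucocorticoid receptor, rose by 0.85 ± 0.15 in LPSREPOP and 1.20 ± 0.25 in LPSCD. Its values were 42.8, 59.3, 37.1 and 24.8 CPM in LPSREPOP and 22.3, 67.6 and 73.5 CPM in LPSCD, with the first LPSCD mouse below the CD range of 22.5 to 25.2 CPM. Plin4, a lipid droplet protein, rose by 1.98 ± 0.47 and 2.34 ± 0.42, and Hif3a by 0.82 ± 0.20 and 1.37 ± 0.27, in the same order. Plin4 was 3.54, 13.4, 2.91 and 1.54 CPM in LPSREPOP, overlapping with REPOP60 at 1.18 to 1.56 CPM. Hif3a overlapped with the unchallenged group in both comparisons. Cdkn1a was also called in LPSREPOP, and Arrdc2, Zbtb16 and Cdkn1a completed the calls in LPSCD.

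The interleukin 6 family and STAT3 list held 3 of 17 called in both comparisons, with a median of 0.29 in LPSREPOP and 0.77 in LPSCD. The calls were Socs3, the feedback inhibitor of the pathway, Cebpd, an acute phase transcription factor, and Stat3 itself. Socs3 rose by 0.89 ± 0.22 in LPSREPOP and 2.08 ± 0.37 in LPSCD, Cebpd by 0.96 ± 0.26 and 1.81 ± 0.40, and Stat3 by 0.30 ± 0.08 and 1.26 ± 0.25. In the LPSCD mice Stat3 was 89.5, 126.0 and 299.2 CPM, Cebpd 10.2, 13.4 and 54.1 CPM and Socs3 5.16, 10.2 and 24.2 CPM. The third mouse was thus far above the other LPSCD mice for each, and the fold changes without it are not given. In LPSREPOP Cebpd and Stat3 overlapped in CPM with REPOP60, and Socs3 did not. The reactive glia list had the highest medians, 0.79 in LPSREPOP with 6 of 24 called and 0.86 in LPSCD with 5 called. Serpina3n rose by 3.69 ± 0.47 and 4.54 ± 0.62 and Lcn2 by 3.61 ± 0.49 and 3.92 ± 0.54. A2m, S1pr3, Gfap and Steap4 were the further calls in LPSREPOP, and A2m, Emp1 and Edn2 in LPSCD. Some of these genes, Lcn2 and Serpina3n among them, were known from earlier results of these mice and are not independent evidence. In LPSREPOP against CD, where 1.01% of genes were called higher and 0.33% lower, 13 list genes were called, of which Sco2, a copper chaperone, was lower, and 7 with the title mark in the fit. In LPSREPOP against LPSCD 0 list genes were called by edgeR, and 15 had an unadjusted p under 0.05.

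**Figure D5:**
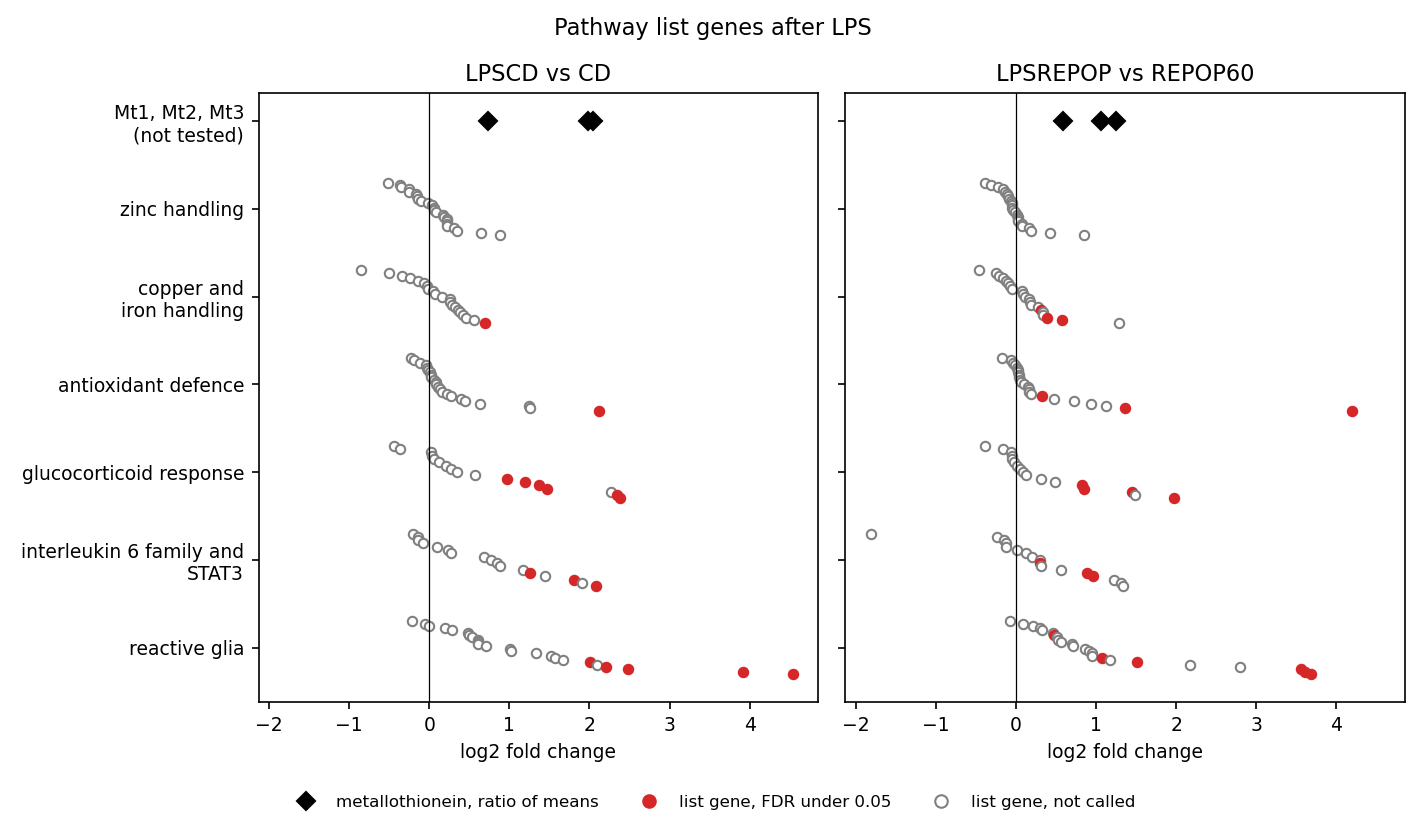
Log2 fold change (horizontal axis) of each tested gene of the 6 lists (rows) in LPSCD against CD and LPSREPOP against REPOP60, filled where the FDR was under 0.05. Black diamonds are the log2 ratios of group means of Mt1, Mt2 and Mt3, drawn as a description. No zinc handling gene was called, and the called genes of the other 5 lists all lie to the right of 0.

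Over the time course 0.0682% of 27869 genes passed an FDR of 0.05 in at least 1 of 13 groups. Of the 6 lists Gfap alone, an intermediate filament of astrocytes and reactive Mueller glia, was called. It rose in DEP2 (0.83 ± 0.12), DEP14 (0.93 ± 0.12) and REPOP3 (0.74 ± 0.12) from 11.3 ± 0.942 CPM in CD, but was not called in 1 fit over all groups, with or without the title mark, while the CPM of Mt1, Mt2 and Mt3 overlapped with CD in these groups. Its log2 fold change was also above 0 in the other groups apart from REPOP60 (-0.24 ± 0.15), at 0.54 to 0.99, the highest in REPOP10 (0.99 ± 0.21), which was not called. Differences between these groups were not tested. In the 8 groups read as pairs by number, the fit with the replicate block called 10 list genes in place of 1. The block there also takes in the title mark. They included Gpx3, Serpina3n, A2m, Emp1 and Slc39a3, a zinc importer, and no metallothionein was a DEG there. DEGs over all genes went from 9 to 72 with the block. The share of all genes at an FDR of 0.05 is not given for it, so nothing is read about the lists.

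Markers of the cell types in the retina were read beside the family, since in whole tissue fewer cells of a type and less RNA per cell cannot be told apart. In DEP14 5 of the 12 microglia markers were at 0, and in LPSREPOP Cx3cr1 stood at 4.12 CPM, against 2.97 CPM in REPOP60, so microglial transcripts were present in these retinas. With LPS 6 of 12 were called higher in both comparisons, among them C1qa, C1qb and C1qc. Over 11 of these markers, led by Csf1r, the sum was 49.2 ± 5.90 CPM in CD, 39.5 ± 4.75 in REPOP60, 107.6 ± 11.0 in LPSCD and 74.0 ± 16.6 in LPSREPOP (SD), so microglial transcripts were higher with LPS in both pairs of groups, without overlap. The 12 Mueller glia markers, led by Glul, summed to 4192 CPM in CD, 4128 in REPOP60, 4344 in LPSCD and 4554 in LPSREPOP. Of these Clu and Vim were called higher in both comparisons, Car14 also in LPSREPOP, Slc1a3 and Abca8a lower in LPSCD and Rlbp1 lower in LPSREPOP. The 6 astrocyte markers, led by Slc1a2, summed to 425.5 CPM in CD, 421.3 in REPOP60, 439.4 in LPSCD and 449.1 in LPSREPOP, with 1 called higher in LPSCD and 3 in LPSREPOP. The 8 markers of endothelium and pericytes, led by Kdr, summed to 344.8 CPM in CD, 319.0 in REPOP60, 395.3 in LPSCD and 409.7 in LPSREPOP, with 3 and 5 called higher. Pigment epithelium markers, led by Ttr, summed to 12.6 CPM in CD, 14.5 in REPOP60, 12.9 in LPSCD and 14.4 in LPSREPOP, with 0 called by edgeR and 2 at an unadjusted p under 0.05 in LPSCD and 0 in LPSREPOP. Lens markers, led by Cryaa, summed to 4.75, 1.77, 1.57 and 1.32 CPM and blood cell markers, led by Hbb-bs, to 9.26, 5.99, 7.25 and 6.69 CPM in the same order. The lens sum varied widely between mice, from 1.32 to 15.03 CPM in CD (SD 5.77) and from 1.17 to 59.2 CPM in DEP14. The blood list moved in opposite directions. Hbb-bs, a beta globin of red cells, was called lower in LPSCD (0.678 against 4.28 CPM) and in LPSREPOP (0.321 against 2.49 CPM). S100a9, a calcium-binding protein of neutrophils, was called higher in LPSREPOP at 2.21 against 0.130 CPM, with mice from 0.512 to 5.44 CPM. Its partner S100a8, also called higher there, ran from 0.256 to 2.78 CPM in LPSREPOP and was at 0 in REPOP60. The 6 cone markers, led by Opn1sw, summed to 999.1 CPM in CD, 988.6 in REPOP60, 789.5 in LPSCD and 877.9 in LPSREPOP. Of these 2 were called lower in each comparison, Arr3, the cone arrestin, in both (-0.85 ± 0.19 in LPSCD and -0.56 ± 0.11 in LPSREPOP), and 1 was called higher in LPSREPOP. The 8 inner neuron markers, led by Nefl, summed to 1695, 1677, 1511 and 1646 CPM, and Nefl was called lower in LPSCD (-0.43 ± 0.10). Of 8 rod markers 1 was called higher in LPSREPOP. With the title mark in the fit, the calls in LPSCD against CD went from 4 to 0 for Mueller glia, from 1 to 0 for astrocytes, from 6 to 4 for microglia, from 3 to 2 for endothelium and pericytes, and to 0 for cones, inner neurons and blood cells. The part of these cell type differences in the metallothionein levels was not tested.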

How the data were processed

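Retinal RNA of 65 mice was sequenced on BGISEQ-500. The labels describe poly-A selection, and the study's methods leave rRNA removal open. According to the study's methods the authors aligned reads to mm10 with HISAT2, counted them with HTSeq (deposited raw counts) and estimated expression with StringTie (deposited FPKM, per length and depth). Versions are not given in the sources used here. From the counts, group comparisons were fitted with edgeR 4.0.16 (R 4.3.3, quasi-likelihood F test, TMM, 2 groups per fit, group as the only term, Benjamini-Hochberg FDR). The study's methods add a batch term to an edgeR model without naming the batches. The fits here left it out, and the title mark stood as an alternative. A gene was tested where a share of at least 0.5 of the mice in 1 group or the other had a count. FPKM were used as a check of levels. Of 50686 genes 50462 matched the annotation. The members, lists and tests were chosen with earlier results of these data known.

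The genes named were the family, genes within 250 kb, at most 4 called genes per list with the smallest p (1 where none was called), the 5 genes most like each member with a mean of at least 5 CPM on log2(CPM + 1), and cell type markers. Some genes of these lists are not reported here. Further called list genes were added once their values were known. Nothing in the labels says more than that each library is 1 mouse. Same-numbered mice deviated together from their group means, with every pair's r above 0.1 (0.118 to 0.778), in 8 of 13 time course comparisons. In these 8 the same-numbered mice also shared the title mark, and the r of differently numbered mice is not given. This r therefore cannot tell pairing from the shared mark. In the LPS comparisons same-numbered mice did not deviate together, so the numbers there do not pair mice. Alternatives were DESeq2 1.42.0, other filters, the title mark as a covariate, the replicate block, leaving out each mouse, and 1 fit over all groups. The level of 3 counts covers counting error only, and ± values are SDs between mice or standard errors of a fit.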

Additional observations from a re-analysis of the deposited data

Results flagged for a closer look

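Of 84 combinations of gene, unit and group, each over the 4 to 6 mice of 1 of the same 14 groups, 2 held a lone distant sample, and chance gives about 1 in 20 groups. In REPOP14 the second mouse, marked RE, had 29.7 FPKM of Mt1 while the other 3 had 42.1 to 43.5 FPKM. In LPSREPOP the second mouse had 34.1 FPKM of Mt3 while the other 3 had 21.2 to 23.1 FPKM, and this mouse also held the highest Mt1 and Mt2 of its group.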

How the results depend on the processing

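The 56 other alternative values of the log2 ratios of the members, and all 9 of their spread over the time course, stayed within the spread between mice, in the same direction. The exception was Mt3 in LPSCD, at 1.10 against all 19 unchallenged re mice. Leaving out 1 mouse gave Mt1 1.58 to 2.29 in LPSCD against CD, 0.89 to 1.17 in LPSREPOP against REPOP60 and -1.13 to -0.42 between the LPS groups. Mt2 gave 1.34 to 2.36, 1.10 to 1.40 and -1.26 to -0.24, and Mt3 0.52 to 0.84, 0.43 to 0.66 and -0.62 to -0.25.

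Counts of calls depended on the settings, and the cause was not tested. In LPSCD against CD the 39 DEGs became 17 with filterByExpr, 311 without a filter, 0 with the title mark or in re mice only, 152 with DESeq2, 279 in 1 fit over all groups and 237 there with the title mark, and 2 (without the third LPSCD mouse) to 359 (without the first) leaving out 1 mouse. The 16 list genes became 36 without a filter, 0 with the title mark or in re mice only, 28 with DESeq2, 30 in 1 fit and 34 there with the mark, and 1 to 36 leaving out 1 mouse. In LPSREPOP against CD the 53 DEGs became 18 with filterByExpr, 179 without a filter, 34 with the mark and 6 in re mice only. Leaving out 1 mouse gave 14 (without the third LPSREPOP mouse) to 111 (without the CD mouse labelled 2M). The 13 list genes became 8, 22, 7, 2 and 3 to 22 in the same order. In LPSREPOP against REPOP60 the 109 DEGs became 68 with filterByExpr, 179 without a filter, 66 in 1 fit and 38 (without REPOP60 mouse 4) to 171 (without LPSREPOP mouse 4) leaving out 1 mouse. The 19 list genes became 12 with filterByExpr, DESeq2 or 1 fit with the mark, 31 without a filter, 7 in 1 fit and 8 to 25 leaving out 1 mouse. Between the LPS groups the 0 DEGs became 1 without a filter, 6 in 1 fit, 18 there with the mark and 0 to 86 (without the first LPSCD mouse) leaving out 1 mouse, and the 0 list genes 1, 5 and 0 to 7 in 1 fit, with the mark and leaving out 1 mouse. Over the time course the 14 DEGs became 9 with filterByExpr, 44 without a filter, 34 with the mark, 22 in 1 fit and 27 there with the mark, and the 1 list gene 6 with the mark and 0 in 1 fit, with or without it. The mark could not be a term where both groups were re throughout. The fits over re mice only and over all groups with the mark, the reference of 19 re mice and the sum of Mt2 and Gm45774 were chosen after seeing the data.

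With the replicate block there were 96 DEGs in LPSCD against CD, 166 DEGs and 21 list genes in LPSREPOP against CD, and 120 DEGs and 19 list genes over the time course. Same-numbered mice correlated at -0.239 to 0.204 in the LPS comparisons, so that the numbers do not pair these mice, and in LPSREPOP against REPOP60 the block gave 153 DEGs. In the 8 time course comparisons read as pairs by number, where the block also takes in the title mark, 72 genes were DEGs with it in place of 9. Taken over same-numbered mice as an alternative, although they are not pairs, the log2 ratios were 2.19 for Mt1 and 2.09 for Mt2 in LPSCD against CD, and 1.04 and 1.22 in LPSREPOP against REPOP60. Depth limits genes near 3 counts, such as Ap3s1-ps2, and not the members.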
